A study of Mus musculus with 24 samples.

Results

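The cytochrome P450 genes of families 1 to 4 were followed in 4 organs of young and aged mice. A gene was counted as a member when the array's probe target matched a mouse RefSeq symbol of the form Cyp, a family digit from 1 to 4, a letter and a number. Cyp4a12a, Cyp4a12b and Cyp2d9 were left out by the rule. The rule gave 78 genes, of which 74 had a probe, out of 45616 genes and unmatched targets on the array. No probe matched Cyp2j7, Cyp2j12, Cyp3a41b or Cyp4a32. Where a member had several of the 92 probes, the brightest over all 24 arrays was used. The members were chosen by name and not by any measured value. The mice were C57BL/6J males of 10 weeks (10W) or 90 weeks (90W), with no genetic change or treatment given in the labels. Total RNA of white adipose tissue (WAT), kidney, liver and lung was hybridised to 1-colour Agilent arrays, with 3 arrays for each organ and age. The labels do not say whether organs came from the same mice or which fat depot the WAT was, and the aged liver samples carry the numbers 1, 2 and 4.

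Cytochrome P450 enzymes of families 1 to 3 are haem proteins of the endoplasmic reticulum that add oxygen to drugs, pollutants, steroids and other small lipids, with electrons passed on by the reductase Por and by cytochrome b5. Family 4 mainly hydroxylates the end of fatty acid chains and of eicosanoids. The hepatocyte is the main site of these enzymes, and many of their genes are switched on by receptors that sense foreign chemicals or fatty acids, such as AhR for Cyp1, CAR for Cyp2b, PXR for Cyp3a and PPARalpha for Cyp4a. In rodents, several hepatic P450 genes also differ between the sexes through the pattern of growth hormone release.

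All levels below are scaled log2 signals, which are the log2 of the processed signal minus the 75th percentile of that array, so that 0 is the upper quartile of all probes. Levels were compared for 1 probe at a time, since probes differ in brightness. Between 58.6% and 71.1% of probes were well above background, and arrays of the same group correlated at 0.942 to 0.995. No spot was saturated. Of the members, 36 were well above background on all 24 arrays and 3 on none. Cyp2b23, Cyp2c39, Cyp4a29, Cyp4a30b, Cyp4f40 and Cyp4x1 reached the detection limit of 3 arrays in no organ and were not tested for age. Each organ expressed its own markers: the summed linear level of 6 hepatocyte markers was 2761 to 4227 in livers against 0.427 to 235 in all other organs, that of 6 proximal tubule markers 568 to 1543 in kidneys, that of 3 alveolar type 2 markers 846 to 1238 in lungs, and that of 5 adipocyte markers 596 to 1195 in WAT. Several arrays stood apart. Aged lung 1 had a hepatocyte marker sum of 235, young WAT 1 had an epididymis marker sum of 626 against less than 1 in the other 5 WAT samples, and aged liver 2 had a neutrophil marker sum of 1106 against 15.4 and 24.7 in the other aged livers.

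In the young mice the liver was the main site of P450 expression. Of 68 members tested over the 12 young arrays, 46 (67.6%) were higher in the liver than in each of the 3 other organs, where 19.7% of all 33265 genes tested were highest. The lung was highest for 5 members (10.2% of all genes), the kidney for 4 (9.39% of all genes) and WAT for 1 (7.23% of all genes), and 12 members had no single highest organ. Every tested member of Cyp2d (8 of 8), Cyp3a (7 of 7) and Cyp4a (4 of 4) was highest in the liver, as were 12 of 14 in Cyp2c. Cyp2b and Cyp2j had their highest levels elsewhere, in the lung for 3 of 4 Cyp2b members and in the kidney for 3 of 6 Cyp2j members. The Cyp2b9 and Cyp2b10 probes, both highest in the lung, ran in parallel over the 24 arrays (r = 0.9996). Whether the probe of one also binds RNA of the other was not tested, so they may not be separate evidence. Each organ may lie on a slide of its own, so organ and slide cannot be told apart.

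**Figure D1:**
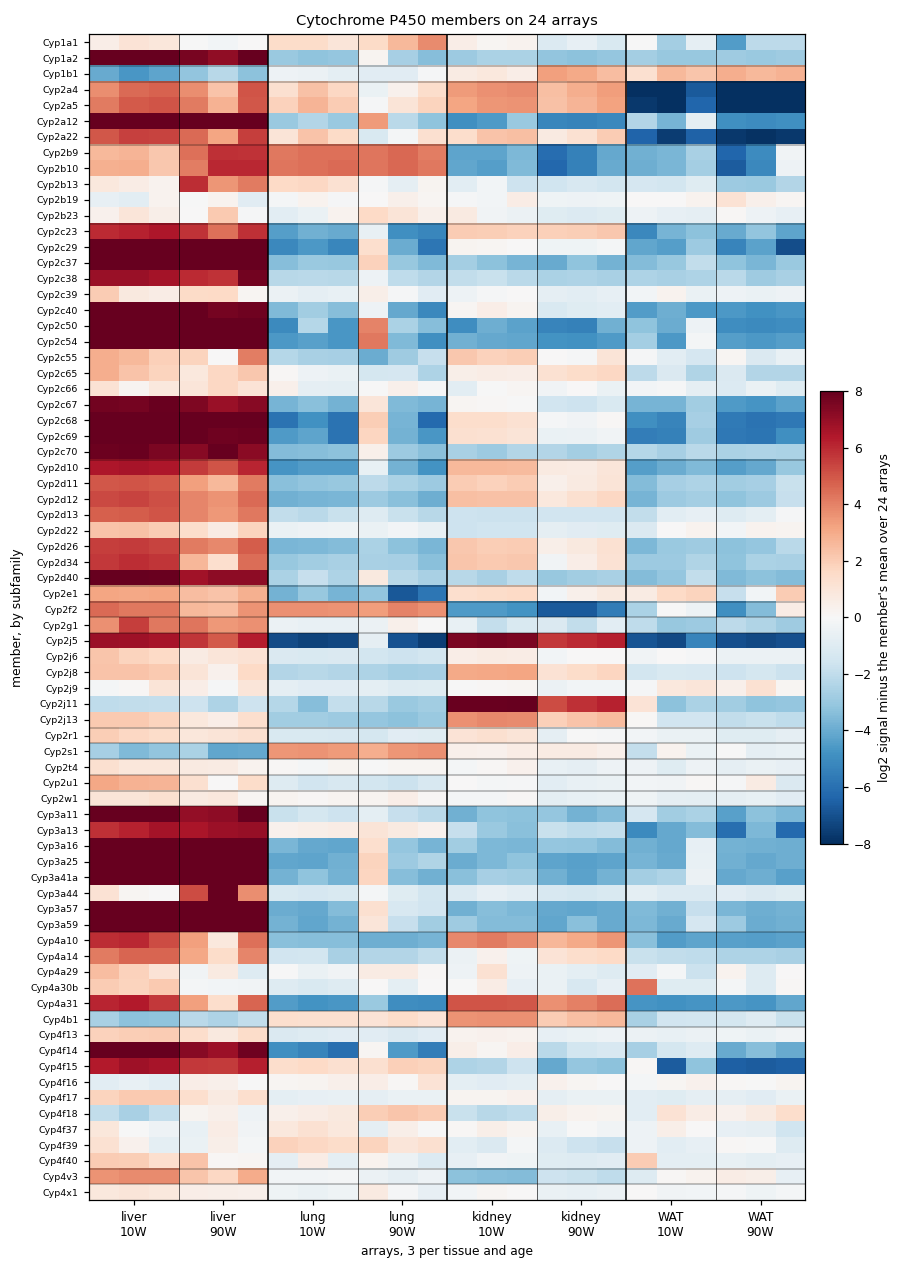
Scaled log2 signal of the 74 members (rows, by subfamily) on the 24 arrays (columns, by organ and age), each row shown relative to that member's own mean, with colours ending at -8 and 8. Most rows are red in the livers, Cyp2j5 also in the kidneys, and Cyp2b9, Cyp2b10 and Cyp2s1 in the lungs, and aged lung 1 (the first of the 3 aged lungs) is redder than the other lungs for many Cyp2c and Cyp3a members.

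Among the members nearly limited to the liver, the 6 with the widest log2 differences were Cyp2c54, Cyp2c50, Cyp3a25, Cyp3a57, Cyp3a16 and Cyp3a59. Their young liver means were 7.65, 8.28, 6.75, 5.98, 6.63 and 6.19, against means of -5.25 or lower in every other organ, where 2 or fewer of the 9 arrays had each probe well above background, so that their order has no meaning. Cyp3a57 was measured on none of those 9 arrays and was at least 2744-fold higher in the liver. Cyp1a2, which oxidises caffeine and aromatic amines, was at least 818-fold higher in the liver than in the other organs. The kidney's members were Cyp2j11 (mean 3.21 ± 0.07 SD, n = 3, with the next organ at -6.29), Cyp4b1 (7.70 ± 0.06, next the lung at 5.39), Cyp2j13 (3.34 ± 0.11, next the liver at 1.56) and Cyp2j8 (5.47 ± 0.04, next the liver at 4.59). By the other Cyp2j13 probes the young liver means were -4.88 or lower, and the young kidney means 1.49 to 5.91. In the lung they were Cyp2s1 (5.36 against 2.30 in the kidney), Cyp2b9 (6.01 against 4.17 in the liver), Cyp2b10 (6.85 against 5.09 in the liver), Cyp4f39 (-2.34 against -3.72 in the liver) and Cyp2b13 (-2.81 against -3.76 in the liver). Cyp1b1, an oestrogen and hydrocarbon oxidase of mesenchymal cells, was highest in young WAT, at 2.64 ± 0.66, followed by kidney (1.28), lung (0.06) and liver (-3.68).

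Several enzymes with known roles outside the liver were shared between organs. Cyp2f2, which activates naphthalene in club cells, was 9.10 ± 0.18 in the liver and 8.42 ± 0.04 in the lung, and these did not differ at the threshold. Cyp2j5, an arachidonic acid epoxygenase, was 6.75 ± 0.07 in the kidney and 5.93 ± 0.12 in the liver, and was not well above background in the young lungs or WAT. Cyp2a5, the coumarin hydroxylase, was 8.56 in the liver, 7.32 in the kidney and 6.08 in the lung, with -3.80 in WAT. Of the 56 members with a highest organ at 10 weeks, 44 had the same highest organ at 90 weeks. Cyp2b13 was highest in the lung at 10 weeks and in the liver at 90 weeks, and Cyp2b9 and Cyp2b10 lost their single highest organ.

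With age, the liver lost signal of many P450 genes and gained signal of a few. Of 65 members tested, 27 (41.5%) were lower and 8 (12.3%) higher at 90 weeks (limma, Benjamini-Hochberg adjusted p under 0.05), with a median log2 change of -0.75. Over all 27869 genes tested in the liver, 16.8% were lower and 10.6% higher, with a median of -0.20. The losses took in 7 of 8 Cyp2d members, 4 of 5 Cyp2j members, 4 of 8 Cyp3a members, both Cyp1a members, 2 of 3 Cyp4a members and 4 of 7 Cyp4f members, but 1 of 14 Cyp2c members and 0 of 4 Cyp2a members. All 3 tested Cyp2b members were higher. The count of lower members rested on single livers: it was 1 without young liver 1 or without young liver 2, 9 without young liver 3, 7 without aged liver 1, 15 without aged liver 2 and 36 without aged liver 4. The member median stayed between -0.96 and -0.59 in these fits, and with young liver 1 left out 4.25% of all genes were lower. In a bulk organ, fewer cells of a type and less RNA per cell cannot be told apart.

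**Figure D2:**
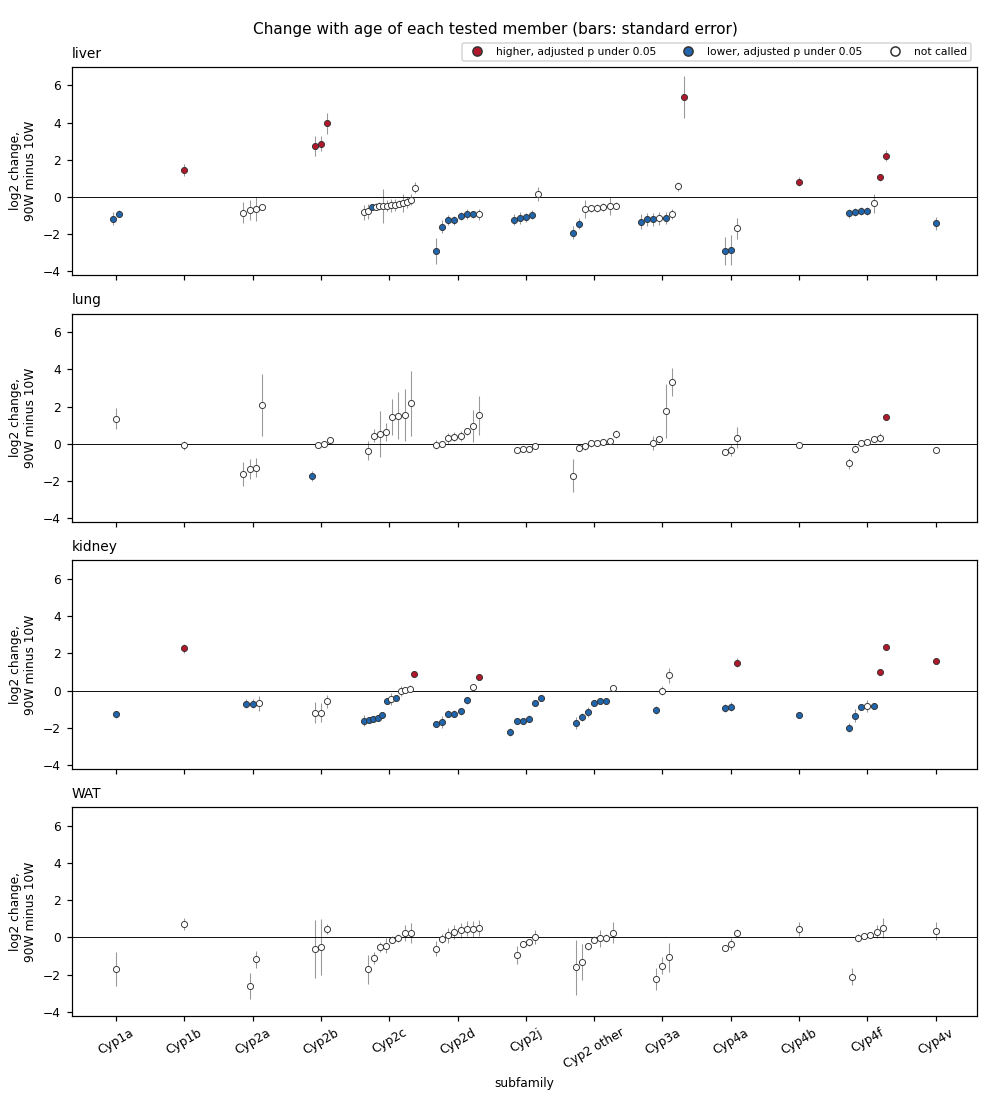
Log2 change from 10 to 90 weeks (vertical axis) of every tested member in each organ, by subfamily, with standard errors as bars, red for higher, blue for lower and white for members past no threshold. In the liver all 3 Cyp2b points are red and most Cyp2d points blue, in the kidney blue points prevail, in the lung 2 points are coloured and in WAT none.

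The Cyp2b genes gave the clearest gain. Cyp2b9 was at 4.28, 4.39 and 3.86 in the young livers and at 6.06, 7.52 and 7.49 in the aged livers (log2 change 2.85 ± 0.41 SE, adjusted p 0.00587, 7.22-fold). Cyp2b13 was at -3.48, -3.74 and -4.04 in the young and at 1.60, -0.81 and -0.19 in the aged livers (3.95 ± 0.58, adjusted p 0.00623, 15.5-fold, and 2.25 on the log2 scale with normexp background correction). Both are textbook female-type P450 genes of the mouse liver, and no aged male liver came near the young range. Cyp2b10, the phenobarbital-inducible target of CAR, was at 5.28, 5.38 and 4.62 in the young and at 6.52, 8.50 and 8.44 in the aged livers (2.73 ± 0.54, adjusted p 0.0152, 6.63-fold). The Cyp2b9 and Cyp2b10 probes ran in parallel over the 24 arrays (r = 0.9996), at a difference of 0.76 ± 0.16 (SD), and whether the probe of one also binds RNA of the other was not tested. A second Cyp2b10 probe changed by 2.41 in the liver. All 3 members kept their call without any 1 of the 6 livers. Cyp2b9 and Cyp2b13 correlated at 0.768 over the 24 arrays, and in the lung Cyp2b13 alone was called. The 250 bases upstream of Cyp2b9 (chr7:26173159-26173408, plus strand) and Cyp2b13 (chr7:26061245-26061494, plus strand) are shown because both were called higher in the liver (RefSeq, GRCm38.p6). They share 248 of 250 bases, and the capitals mark the only match to TTGCNNAA, a C/EBP-type motif searched on both strands, which 9.56% of 32851 such windows hold.
Cyp2b9: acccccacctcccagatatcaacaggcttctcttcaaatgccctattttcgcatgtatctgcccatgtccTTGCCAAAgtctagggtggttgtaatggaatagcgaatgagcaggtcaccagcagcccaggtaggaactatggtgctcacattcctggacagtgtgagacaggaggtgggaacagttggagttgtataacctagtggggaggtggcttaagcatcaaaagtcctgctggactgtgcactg
Cyp2b13: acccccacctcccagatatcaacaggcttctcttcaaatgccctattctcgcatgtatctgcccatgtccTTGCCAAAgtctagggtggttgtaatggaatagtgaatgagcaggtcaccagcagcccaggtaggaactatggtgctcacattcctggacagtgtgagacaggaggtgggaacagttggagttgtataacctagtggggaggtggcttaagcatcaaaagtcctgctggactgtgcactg
The motif starts 180 bases before the start site in both, and 14 of the 61 members with a window hold it.

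Of 8 Cyp3a members, 1 was called higher and 4 lower. Cyp3a44, another female-type gene, was at -5.49, -6.51 and -6.61 in the young livers, where it was well above background on none, and at -1.46, 1.90 and -2.92 in the aged livers. Its level in the aged livers was higher by at least 14.2-fold (adjusted p 0.0174), it passed the detection filter through the aged livers alone, and the call was lost with normexp background correction (adjusted p 0.106). The aged livers differed widely among themselves. Cyp3a16, also female-type in textbooks, was at 6.98, 6.64 and 6.26 in the young and at 4.75, 4.97 and 6.14 in the aged livers (-1.34 ± 0.39, adjusted p 0.0424). Its call held in 1 of the 6 fits without 1 liver. Cyp3a25, Cyp3a57 and Cyp3a59 fell by 1.15, 1.20 and 1.21 on the log2 scale. Cyp3a11, the main PXR-driven drug and steroid oxidase, was at 7.54, 7.20 and 6.57 in the young and at 5.55, 5.63 and 6.65 in the aged livers, and did not pass the threshold (-1.16 ± 0.37, adjusted p 0.0554). Cyp3a13, best known from the gut, was at 4.52, 4.82 and 5.34 in the young and at 5.21, 5.51 and 5.64 in the aged livers (0.56 ± 0.25, adjusted p 0.124). Probes of Cyp3a16, Cyp3a25, Cyp3a57 and Cyp3a59 correlated at over 0.99 with each other, and whether the probe of one gene also binds RNA of another was not tested. The upstream windows of Cyp3a16 (chr5:145469724-145469973, minus strand) and Cyp3a44 (chr5:145805875-145806124, minus strand) are shown because these genes were called in opposite directions in the liver, with the limits given above (RefSeq, GRCm38.p6).
Cyp3a16: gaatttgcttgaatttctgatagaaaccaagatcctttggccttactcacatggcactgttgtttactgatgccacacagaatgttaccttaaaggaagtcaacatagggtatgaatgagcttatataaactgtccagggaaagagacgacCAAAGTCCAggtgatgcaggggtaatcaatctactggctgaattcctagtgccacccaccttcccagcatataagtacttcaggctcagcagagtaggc
Cyp3a44: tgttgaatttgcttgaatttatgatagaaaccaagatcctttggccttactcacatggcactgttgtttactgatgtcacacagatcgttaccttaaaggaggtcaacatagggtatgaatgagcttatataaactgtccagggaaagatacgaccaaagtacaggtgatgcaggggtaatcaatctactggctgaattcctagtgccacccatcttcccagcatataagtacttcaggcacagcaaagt
They share 236 of 246 aligned bases. Capitals mark CAAAGTCCA, an HNF4-type motif searched on both strands, which starts 99 bases before the Cyp3a16 start site. The Cyp3a44 window has no exact match and reads caaagtaca at the aligned place. The exact motif is in 0.384% of all windows and in 9 of the 61 members with a window, which are Cyp3a11, Cyp3a16, Cyp3a41a and 6 Cyp2c genes. Of these, Cyp3a16 and Cyp2c69 were called lower in the liver and the others were not called there.

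The remaining 4 higher members were Cyp4f18, Cyp1b1, Cyp4f16 and Cyp4b1. Cyp4f18, the leukotriene hydroxylase of myeloid cells, was at -0.44, -1.05 and -0.40 in the young and at 1.75, 1.92 and 1.11 in the aged livers (2.22 ± 0.28, adjusted p 0.00408, 4.67-fold). Cyp1b1 was at -3.40, -4.01 and -3.63 in the young and at -2.52, -1.58 and -2.64 in the aged livers (1.44 ± 0.32, adjusted p 0.0207, 2.71-fold), a change of 0.37 that did not pass with normexp (adjusted p 0.222). For neither gene did the ages overlap. Cyp4f16 rose from -1.51, -1.28 and -1.52 to -0.15, -0.31 and -0.72 (1.04 ± 0.20, adjusted p 0.0131, 2.06-fold). Cyp4b1, a fatty acid and furan oxidase, rose from 1.46, 0.78 and 0.88 to 1.91, 1.59 and 2.07 (0.82 ± 0.24, adjusted p 0.043), a call lost without 4 of the 6 livers in turn. Markers of other cells moved in the same livers. All 5 macrophage markers were higher with age, their sum going from 90.9 to 123 in young livers to 312 to 460 in aged ones, and 3 of 4 fibroblast markers were higher, with sums of 51.7 to 67.2 and 127 to 147. Neutrophil sums were 1.46 to 6.63 and 15.4 to 1106, with 1 of 3 markers called. The part of these cells in the Cyp4f18 and Cyp1b1 changes was not tested.

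**Figure D3:**
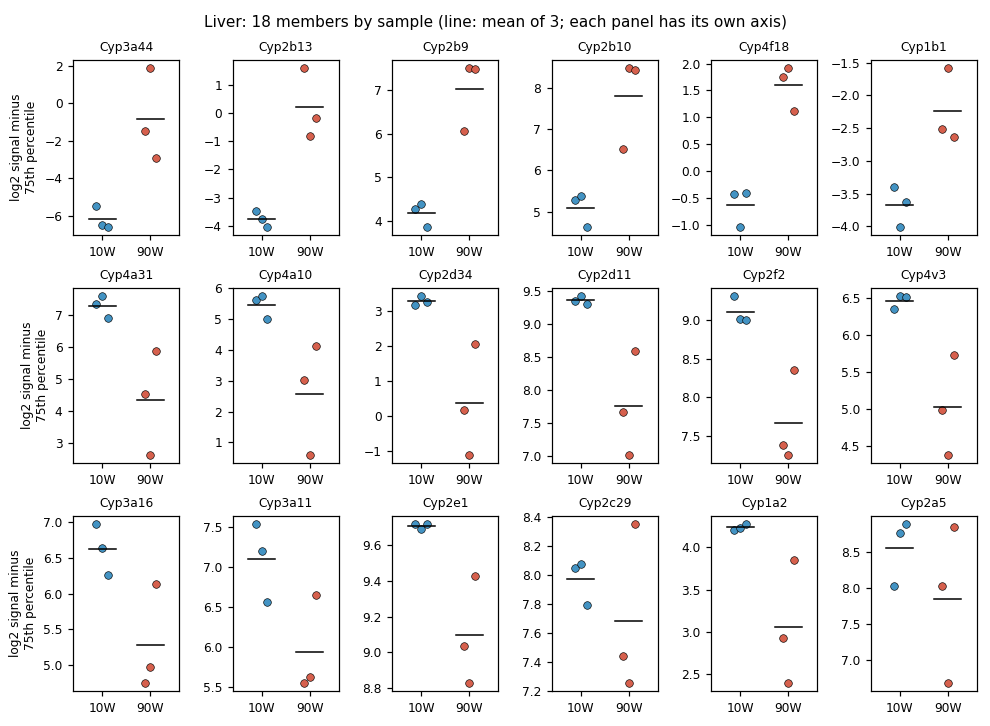
Scaled log2 signal of 18 members in each liver (10W blue, 90W red, line for the mean of 3 livers, own axis in each panel). The upper row holds 6 members that were higher at 90 weeks with no overlap, and the rows under it show the aged livers spread out, with the highest aged value near or in the young range for several members.

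Cyp4a31 and Cyp4a10, PPARalpha-driven fatty acid hydroxylases, and Cyp2d34 had the lowest log2 changes of the called members. Cyp4a31 was at 7.33, 7.60 and 6.91 in the young and at 4.53, 2.63 and 5.89 in the aged livers (-2.93 ± 0.74, adjusted p 0.0301, 7.64-fold lower). Cyp4a10 was at 5.63, 5.76 and 4.99 in the young and at 3.03, 0.59 and 4.13 in the aged livers (-2.87 ± 0.82, adjusted p 0.0414, 7.34-fold lower), and its 2 other probes changed by -2.82 and -3.02. These near copies correlated at 0.991 over the arrays. Cyp4a14 was at 1.01, 1.50 and 1.50 in the young and at -0.10, -1.71 and 0.71 in the aged livers and did not pass (-1.70 ± 0.57, adjusted p 0.0627). The aged livers spread out in the same order for most members: aged liver 2 was the lowest aged liver for 24 of the 27 lower members and aged liver 4 the highest for 25.

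The Cyp2d subfamily, whose human counterpart oxidises many basic drugs, was called lower in 7 of 8 members. Of the 6 fits without 1 liver, the call of Cyp2d10 held in 1 and those of Cyp2d11 and Cyp2d34 in 2. That of Cyp2d13 held in 3, and those of Cyp2d12, Cyp2d26 and Cyp2d40 in 4. Cyp2d34 was at 3.17, 3.43 and 3.24 in the young and at 0.17, -1.11 and 2.04 in the aged livers (-2.92 ± 0.71, adjusted p 0.0268). Cyp2d11 was at 9.35, 9.43 and 9.31 in the young and at 7.68, 7.02 and 8.59 in the aged livers (-1.60 ± 0.37, adjusted p 0.0235, 3.03-fold lower). Cyp2d26, Cyp2d12, Cyp2d13, Cyp2d10 and Cyp2d40 fell by 1.26, 1.26, 1.04, 0.94 and 0.93, but the second Cyp2d26 probe, brighter in the liver, gave a change of -0.44 that did not pass (adjusted p 0.071). Cyp2d22 stayed short of the threshold (-0.93, adjusted p 0.0538). Cyp2d11, Cyp2d12 and Cyp2d26 correlated at 0.995 or more over the arrays. Whether the probe of one also binds RNA of another was not tested, so they may not be separate evidence.

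Other called losses were in Cyp1a, Cyp2j, Cyp4f and several single-gene subfamilies. Cyp2u1, a fatty acid hydroxylase, was at -0.26, -0.53 and -0.58 in the young and at -2.03, -3.27 and -1.86 in the aged livers (-1.93 ± 0.37, adjusted p 0.014, 3.81-fold lower), and it kept its call in 5 of the 6 fits without 1 liver, more than any other lower member. Cyp2f2 was at 9.31, 9.01 and 8.99 in the young and at 7.38, 7.26 and 8.36 in the aged livers (-1.44 ± 0.31, adjusted p 0.0185, 2.71-fold lower). Cyp4v3, which hydroxylates medium-chain fatty acids, was at 6.36, 6.53 and 6.51 in the young and at 4.98, 4.38 and 5.74 in the aged livers (-1.44 ± 0.33, adjusted p 0.0229). For both, every aged liver lay under every young one. Cyp1a2 went from 4.21, 4.23 and 4.28 to 2.93, 2.40 and 3.85 (-1.18 ± 0.35, adjusted p 0.0461), and Cyp1a1, which oxidises polycyclic hydrocarbons, from -2.91, -2.31 and -2.54 to -3.43, -3.63 and -3.41 (-0.90 ± 0.20, adjusted p 0.0197). Cyp2j5 went from 6.04, 5.95 and 5.79 to 4.88, 4.05 and 5.43 (-1.14 ± 0.34, adjusted p 0.0456), and Cyp2j6, Cyp2j8 and Cyp2j13 also fell, by 0.96 to 1.23. The Cyp2j13 loss in the liver rests on the probe used. Its other probes were well above background on 0, 0 and 2 of the 6 livers. Cyp4f13, Cyp4f14, Cyp4f15 and Cyp4f17 fell by 0.75 to 0.90.

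The Cyp2c, Cyp2a and Cyp2e1 genes, which hold some of the brightest probes, mostly did not pass. In Cyp2c the 14 changes ran from -0.84 to 0.48 and only Cyp2c69 was called (-0.56 ± 0.16, adjusted p 0.0411). Cyp2c29, an epoxygenase, was at 8.05, 8.08 and 7.79 in the young and at 7.44, 7.25 and 8.35 in the aged livers (-0.29 ± 0.30, adjusted p 0.482). Cyp2a5 was at 8.02, 8.76 and 8.89 in the young and at 8.02, 6.68 and 8.84 in the aged livers (-0.71 ± 0.54, adjusted p 0.338). Both overlapped between ages. Cyp2e1, the ethanol and paracetamol oxidase, was at 9.72, 9.69 and 9.71 in the young and at 9.04, 8.83 and 9.43 in the aged livers, without overlap but just short of the threshold (-0.61 ± 0.19, adjusted p 0.0528). The hepatocyte marker sum was 3773 to 4227 in young and 2761 to 3569 in aged livers, with Ttr called lower among 6 markers.

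In the kidney most of the tested members were lower. Of 56 members tested, 36 (64.3%) were lower and 7 (12.5%) higher at 90 weeks, with a median log2 change of -0.82. This organ changed widely: 42.5% of all 31485 genes tested were lower and 20.7% higher, with a median of -0.23. All 6 Cyp2j members, 6 of 8 Cyp2d, 7 of 12 Cyp2c, 4 of 7 Cyp4f and 2 of 3 Cyp2a members were lower, while 0 of 3 Cyp2b members passed in either direction. The count of lower members stayed at 32 to 38 with any 1 kidney left out. Scaling to the spike-in control spots shifted the median change of all genes from -0.23 to 0.16, and the member counts to 25 lower and 11 higher. With that scaling 13.9% of all genes were lower and 29.6% higher. Cyp2c29 and Cyp2j9 then had changes of 0.00016 and 0.0135. All 6 proximal tubule markers were lower at 90 weeks, with sums of 1368 to 1543 in young and 568 to 803 in aged kidneys. Of 4 markers of other nephron segments 3 were lower, with sums of 426 to 538 and 148 to 319. Of 3 podocyte markers 2 were higher, with sums of 14.6 to 17.3 and 20.2 to 31.3. The part of these cells in the member losses was not tested.

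The renal Cyp2j genes make epoxides of arachidonic acid or are close relatives of those that do. Cyp2j11 was at 3.16, 3.19 and 3.28 in the young and at 0.49, 1.08 and 1.40 in the aged kidneys (-2.22 ± 0.23, adjusted p 0.000524, 4.66-fold lower). Cyp2j5 was at 6.70, 6.83 and 6.72 in the young and at 4.85, 5.12 and 5.41 in the aged kidneys (-1.63 ± 0.15, adjusted p 0.000378), and Cyp2j8 went from 5.42, 5.48 and 5.51 to 3.54, 3.86 and 4.09 (-1.64 ± 0.15, adjusted p 0.000348). The young kidneys were tightly grouped for each, and no aged kidney reached them. Cyp2j13, Cyp2j6 and Cyp2j9 fell by 1.52, 0.65 and 0.38.

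Drug-oxidising and fatty acid genes of other subfamilies fell in the same kidneys. Cyp2d10 was at 5.02, 5.02 and 4.99 in the young and at 3.15, 3.09 and 3.39 in the aged kidneys (-1.80 ± 0.10, adjusted p 7.54e-05, 3.47-fold lower). Cyp2d34 went from -0.23, -0.33 and -0.32 to -2.72, -1.94 and -1.29 (-1.69 ± 0.34, adjusted p 0.00603). Cyp2e1 was at 7.95, 8.06 and 8.15 in the young and at 6.33, 6.97 and 7.36 in the aged kidneys (-1.17 ± 0.25, adjusted p 0.00809, 2.24-fold lower). These 3 genes had no overlap between ages. Cyp4f14, which hydroxylates leukotrienes and vitamin K, went from -1.60, -1.92 and -1.54 to -4.18, -3.51 and -3.34 (-1.99 ± 0.24, adjusted p 0.000819). Cyp2f2 went from 0.27, 0.26 and 0.01 to -1.95, -1.92 and -0.84 (-1.75 ± 0.31, adjusted p 0.00361). Cyp4b1, for which the kidney was the highest organ, went from 7.64, 7.73 and 7.74 to 6.08, 6.46 and 6.64 (-1.30 ± 0.15, adjusted p 0.000761). Its level in the aged kidney was still above that in the aged lung, where the 3 samples were at 5.19, 5.53 and 5.18.

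Some renal losses were smaller or depended on the probe. Cyp2c55 went from -0.72, -1.07 and -0.94 to -2.83, -2.96 and -1.83 (-1.63 ± 0.30, adjusted p 0.00445), but its second probe, dimmer in the kidney, changed by -0.26. Cyp1a1 went from -2.92, -3.28 and -3.18 to -4.51, -4.07 and -4.66 (-1.29 ± 0.18, adjusted p 0.00146), and Cyp1a2 was well above background in no kidney. Cyp4a10 went from 3.61, 3.93 and 3.54 to 2.40, 2.79 and 3.27 (-0.87 ± 0.24, adjusted p 0.0183). Smaller losses were seen in Cyp2a5, which went from 7.04, 7.43 and 7.49 to 6.19, 6.59 and 7.09 with overlap (-0.70 ± 0.25, adjusted p 0.0472), and in Cyp2c29, which went from -0.66, -0.70 and -0.83 to -1.18, -1.19 and -1.0 (-0.39 ± 0.09, adjusted p 0.0114). Cyp2r1, a vitamin D 25-hydroxylase, fell by 1.42. Cyp2b10, Cyp3a11 and Cyp3a13 were not called: Cyp2b10 was at -1.73, -1.97 and -1.11 in the young and at -3.85, -2.95 and -1.58 in the aged kidneys (adjusted p 0.114), Cyp3a11 at -5.35, -4.69 and -4.77 and at -4.57, -5.26 and -4.98 (adjusted p 0.999), and Cyp3a13 at -3.15, -4.28 and -4.68 and at -3.11, -3.36 and -3.21 (adjusted p 0.106).

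The 7 higher renal members included 2 of the 3 largest changes in the organ. Cyp4f18 was at -0.28, -0.70 and -0.53 in the young and at 2.0, 1.81 and 1.75 in the aged kidneys (2.35 ± 0.13, adjusted p 8.32e-05, 5.12-fold). Cyp1b1 was at 1.25, 1.43 and 1.14 in the young and at 3.92, 3.65 and 3.06 in the aged kidneys (2.27 ± 0.23, adjusted p 0.000485, 4.82-fold). Cyp4v3 went from -0.57, -0.68 and -0.72 to 1.07, 0.96 and 0.73 (1.58 ± 0.11, adjusted p 0.000173, 2.98-fold). For these genes the ages were wide apart and the kidneys of an age close together. Cyp4a14 went from -3.61, -2.86 and -3.54 to -2.11, -1.79 and -1.60 (1.51 ± 0.24, adjusted p 0.00226, 2.84-fold, and 0.79 on the log2 scale with normexp), opposite to Cyp4a10 and Cyp4a31 in the same kidneys. Cyp4f16 went from -1.47, -1.62 and -1.49 to -0.34, -0.52 and -0.69 (1.01 ± 0.11, adjusted p 0.000669, 2.01-fold). Cyp2c65 and Cyp2d22 rose by 0.89 and 0.75, and Cyp2c65 had a change of -0.00906 with another background correction. In these kidneys all 4 fibroblast markers were higher, with sums of 10.1 to 11.7 in young and 42.3 to 57.4 in aged kidneys, as were all 4 tested macrophage markers, with sums of 19.3 to 22.2 and 51.3 to 75.5, and both tested neutrophil markers, with sums of 0.319 to 0.702 and 2.26 to 9.17. Their part in the Cyp1b1 and Cyp4f18 changes was not tested.

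The liver and kidney calls were set side by side for the 55 members tested in both. Of the 27 members lower in the liver and the 36 lower in the kidney, 20 were lower in both (12.6% of all 26974 genes tested in both organs were), and these took in Cyp1a1, Cyp2f2, Cyp2u1, Cyp4a10 and Cyp4a31, 6 Cyp2d, 4 Cyp2j and 4 Cyp4f genes and Cyp2c69. Cyp1b1, Cyp4f16 and Cyp4f18 were higher in both (7.67% of all genes were). Cyp4v3 was lower in the liver and higher in the kidney, and Cyp4b1 the reverse. In 1 fit of all 24 arrays, the change in the liver minus that in the kidney passed the threshold for 6 of 68 members (8.63% of all genes). It was 4.52 ± 0.64 for Cyp2b13 (adjusted p 0.000178), -3.01 ± 0.48 for Cyp4v3 (adjusted p 0.000564) and 2.12 ± 0.37 for Cyp4b1 (adjusted p 0.00124), and the other three were Cyp3a44, which was well above background in no kidney, Cyp4a14 and Cyp2d22.

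**Figure D4:**
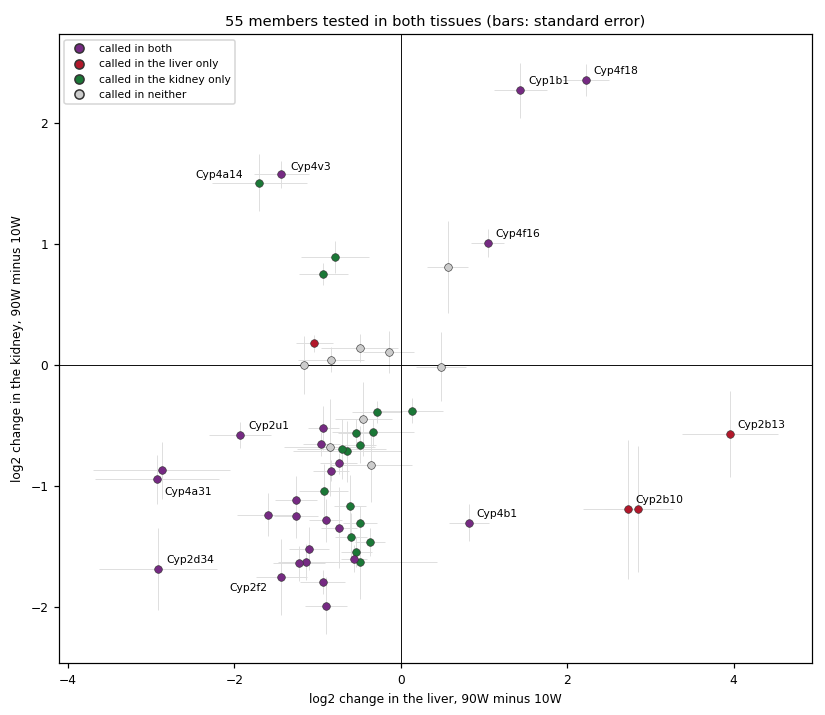
Log2 change with age in the liver (horizontal axis) against that in the kidney (vertical axis) for the 55 members tested in both organs, with standard errors as bars and colours for where a member was called. Most points lie in the lower left, 3 called in both lie in the upper right, and Cyp4v3 and Cyp4b1 were called in opposite directions.

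Few members passed the test in the lung. Of 54 members tested, 1 was higher and 1 lower at 90 weeks (1.85% each), where 2.7% and 2.86% of all 30312 genes were, and 13 members had an unadjusted p under 0.05 (24.1%, against 26.9% of all genes). Cyp4f18 was at 1.92, 2.12 and 2.30 in the young and at 3.47, 3.71 and 3.54 in the aged lungs (1.46 ± 0.13, adjusted p 0.0107, 2.75-fold). Neutrophil marker sums in these lungs were 39.5 to 122 and 146 to 1098, with 1 of 3 markers called, and their part was not tested. Cyp2b13 was at -2.69, -2.64 and -3.09 in the young and at -4.44, -5.07 and -4.12 in the aged lungs, of which 1 was well above background (-1.74 ± 0.27, adjusted p 0.0261, and -0.65 with normexp). The Cyp4f18 call was lost without young lung 1 or 2, and the Cyp2b13 call without any 1 young lung.

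The P450 genes brightest in the lung did not pass the test. Cyp2f2 was at 8.45, 8.44 and 8.38 in the young and at 8.12, 8.75 and 8.45 in the aged lungs (0.01 ± 0.17, adjusted p 0.966). Cyp2b10 was at 6.72, 6.85 and 6.97 and at 6.72, 7.02 and 6.63 (-0.06 ± 0.14, adjusted p 0.807), and Cyp4b1 at 5.41, 5.38 and 5.37 and at 5.19, 5.53 and 5.18 (-0.09 ± 0.12, adjusted p 0.683). The ages overlapped for each of them. Cyp1a1 was at -1.99, -1.98 and -2.45 in the young and at -1.90, -0.83 and 0.36 in the aged lungs, without overlap and without passing (1.35 ± 0.55, adjusted p 0.187). Cyp1b1 was at 0.19, 0.14 and -0.15 and at -0.30, -0.28 and 0.50, and Cyp2a5 at 5.69, 6.61 and 5.93 and at 3.79, 4.88 and 5.67 (adjusted p 0.848 and 0.17). Cyp2e1 was at 2.83, 3.52 and 2.83 in the young and at 3.40, -0.19 and 0.80 in the aged lungs (-1.73 ± 0.90, adjusted p 0.271), so that 1 aged lung lay within the young range and the others far under it. Cyp3a13, Cyp4a10, Cyp4a14 and Cyp3a11 had changes of 0.25, -0.46, -0.36 and 0.04, none past the threshold.

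Many liver-type members were higher in aged lung 1 than in the other lungs. Of the 46 members that were highest in the young liver, 28 were higher in aged lung 1 than in all 5 other lungs, with a median difference of 1.03 between this array and the median of the others over the 46. Of the 28, 15 were well above background in all 5 other lungs too and 9 in none. Among all genes tested 12.1% stood that way, and among all 6564 genes highest in the young liver 14.6%. Cyp2c29 was at 0.50 there, against -6.65 to -4.84 in the other 5 lungs, and Cyp2c54 was at 0.82, against values of -6.91 or lower. Cyp2c50, Cyp2a12 and Cyp3a41a were at 1.27, 0.56 and 1.14, against highest other values of -5.01, -4.99 and -3.76. Cyp2j5 was at -1.55, against -8.36 to -7.77. None of the 9 members highest in the young lung or kidney stood above all other lungs in this array. Its hepatocyte marker sum was 235, against 0.427 to 8.42 in the other lungs, and its part was not tested. Without this lung, Cyp3a57 was also called higher (adjusted p 0.0207), Cyp2e1 also lower (-2.76, adjusted p 0.0321), and the calls of Cyp4f18 and Cyp2b13 stood. Cyp3a57 was well above background in no young lung and in 2 aged lungs besides aged lung 1. It passed the detection limit of 3 arrays only with aged lung 1 counted. Adipocyte marker sums, of genes of a tissue where Cyp2e1 is bright, were 22.2 to 34.2 in young and 5.78 to 10.6 in aged lungs, with 3 of 5 markers called lower, and their part was not tested.

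**Figure D5:**
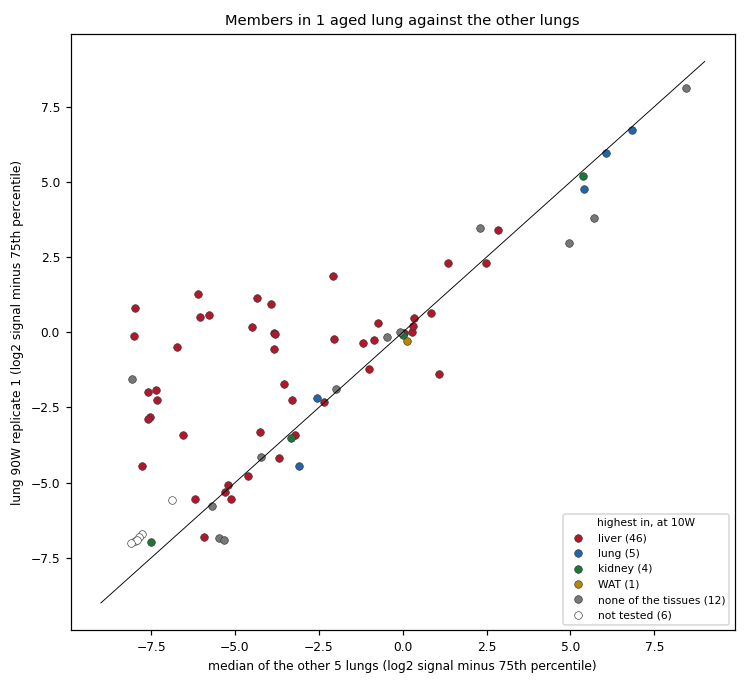
Scaled log2 signal of the 74 members in aged lung 1 (vertical axis) against the median of the other 5 lungs (horizontal axis), coloured by the organ with the highest level at 10 weeks, with the line of equal values. Red points (liver) rise up to 8.81 above the line, while blue (lung) and green (kidney) points lie near or under it.

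In WAT no member was called in either direction by limma among 48 tested, where 1.99% of all 30042 genes were higher and 0.566% lower. By the methods' t-test 0 were called after adjustment too, and 8 members had an unadjusted p under 0.05 in limma (16.7%, against 19.2% of all genes), all of them lower at 90 weeks. They were Cyp2a4, Cyp2a5, Cyp2c67, Cyp2r1, Cyp3a11, Cyp3a41a, Cyp4a14 and Cyp4f14, which were singled out after their values were seen. Cyp4f14 was at -4.69, -3.49 and -3.10 in the young and at -6.06, -5.47 and -6.07 in the aged WAT (-2.11, adjusted p 0.0731), and passed without young WAT 1 (adjusted p 0.0231). Cyp2a5 was at -3.84, -5.10 and -2.46 in the young and at -5.69, -6.95 and -6.54 in the aged WAT, where no array was well above background (adjusted p 0.124). Cyp3a11 was at -2.86, -4.26 and -4.02 and at -5.84, -4.80 and -5.09 (adjusted p 0.151). Hepatocyte marker sums in these samples were 5.30 to 25.4 in young and 0.731 to 1.92 in aged WAT, and their part was not tested.

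Several WAT members varied widely between aged samples. Cyp2e1 was at 7.21, 8.18 and 8.33 in the young and at 4.72, 6.36 and 8.62 in the aged WAT (-1.34 ± 0.97, adjusted p 0.49). Cyp2f2 was at 2.23, 4.72 and 4.39 and at -0.13, 1.31 and 5.36 (-1.60 ± 1.48, adjusted p 0.589), and Cyp2b10 at -1.45, -1.24 and -0.29 and at -4.23, -2.72 and 2.07 (-0.64 ± 1.57, adjusted p 0.855). For these genes aged WAT 3 was above every young sample and the other aged samples under all of them. The neutrophil marker sum was 711 in aged WAT 3, 4.73 and 73.0 in the other aged WAT samples and 0.987 to 78.0 in young WAT. The adipocyte marker sum was 1030 in aged WAT 3, 596 and 817 in the other aged WAT samples and 799 to 1195 in young WAT. The part of these cells in this spread was not tested. Cyp1b1 was at 1.91, 3.19 and 2.82 in the young and at 3.49, 3.21 and 3.39 in the aged WAT, without overlap (0.72 ± 0.35, adjusted p 0.32). Cyp4b1 was at 1.50, 2.55 and 2.61 and at 2.64, 3.07 and 2.31 (adjusted p 0.541). Cyp1a1, Cyp2c29, Cyp3a13, Cyp4a10 and Cyp4a14 had changes of -1.72, -1.72, -1.08, -0.34 and -0.57, with adjusted p of 0.134 to 0.598. Young WAT 1, the sample with the epididymis marker sum of 626, held the highest WAT values of Cyp2j13 (-0.30), Cyp4f15 (-1.21), Cyp4a30b (-2.62) and Cyp2j11 (-3.62), all chosen after their values were seen.

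The change with age itself differed between organs for 28 of the 68 members tested (limma F-test of the 3 differences, adjusted p under 0.05), where 31.2% of all 34158 genes did. Cyp2b13 (higher in the liver, lower in the lung, adjusted p 2.16e-05), Cyp4v3 (adjusted p 0.00113) and Cyp4b1 (adjusted p 0.00166) were called in opposite directions in 2 organs. Cyp1b1 changed by 1.44, -0.08, 2.27 and 0.72 in liver, lung, kidney and WAT (adjusted p 0.0045), and Cyp4a14 by -1.70, -0.36, 1.51 and -0.57 (adjusted p 0.0037). Cyp4f18 changed by 2.22, 1.46, 2.35 and 0.51, and was called in all organs but WAT (adjusted p 0.0325 for the difference).

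Genes that serve or regulate the P450 enzymes were also followed, and their counts stand against the shares of all genes called, which were 10.6% higher and 16.8% lower in the liver and 20.7% and 42.5% in the kidney. In the liver 0 of 15 regulators were called, with Hnf4a at -0.33 (adjusted p 0.33), Cebpa at -0.96 (adjusted p 0.054) and Ahr at 0.89 (adjusted p 0.062), while in the kidney 4 were higher and 6 lower, with Hnf4a falling by 1.08. Of 6 redox partners, Cyb5b and Pgrmc1 fell by 1.02 and 1.04 in the liver, where the reductase Por was at 0.54 (adjusted p 0.28), and 4 fell in the kidney, with Por falling by 1.03. Among 10 genes of haem synthesis and breakdown, those that fell in the liver included Uros and Ppox, and Hmox1, the haem-degrading oxygenase, rose there by 2.0, with Alas1, the first enzyme of the pathway, at 0.21 (adjusted p 0.77). In the kidney 8 of the 10 fell. Members grouped by receptor split: among 5 AhR targets tested in the liver, Cyp1b1 rose while Cyp1a1 and Cyp1a2 fell. Among 5 CAR and PXR targets Cyp2b10 alone rose and none fell, and of 3 PPARalpha targets 2 fell. Of 8 textbook female-type members in the liver, Cyp2b9, Cyp2b13 and Cyp3a44 rose, Cyp2c69 and Cyp3a16 fell, and Cyp2a4, Cyp2c40 and Cyp3a41a did not pass. Cyp3a44 passed the filter through the aged livers alone and lost its call with normexp, and the Cyp2b9 probe ran in parallel with that of Cyp2b10. The Cyp2c69 and Cyp3a16 calls each held in 1 of the 6 fits without 1 liver. In the kidney 4 of the 6 female-type members tested fell. Among 9 epoxygenases and hydroxylases of arachidonic acid, 5 fell in the liver and 8 in the kidney, where Cyp4a14 rose. In the lung 1 regulator and 1 redox partner fell, in WAT 1 redox partner fell and 1 haem gene rose, and of the 5 lists by receptor, sex or substrate none had a call in these organs beside Cyp2b13 in the lung.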

How the data were processed

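The 24 arrays held total RNA of liver, lung, kidney and WAT from C57BL/6J males, labelled by Quick Amp with Cy3. The authors deposited Agilent scanner output, per the labels from Feature Extraction 11.0.1.1, whose processed signal is a background-corrected intensity per spot. The headers name a mouse array design and the methods a human one. Values were log2 of this intensity minus the array's 75th percentile over non-control probes, without outlier-flagged spots, with spots of a probe averaged. Of 56605 probes, 58.3% took a RefSeq symbol (GRCm38.p6). The brightest probe over 24 arrays stood for a gene. Genes detected above background in 3 or more of an organ's 6 arrays were tested with limma 3.58.1 in R 4.3.3, with Benjamini-Hochberg adjustment within the organ and a threshold of 0.05. The paper names a Student test, which was an alternative here ("the methods' t-test", two-tailed). With 3 samples a group an exact test cannot go below 0.1. Whether samples of a group are separate animals is not stated, so the p-values measure the spread between these samples, and array number limits the precision. Scripts were tested on simulated data.

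Alternatives were another background correction (normexp, offset 50), quantile and spike-in scaling, no filter, other probe choices, 1 fit of 24 arrays, a replicate block and leaving out each array. Median centring over tested genes was added after seeing the data. Every sample's value is given for members called with at least a 2-fold change and no overlap, up to 8 a direction, and for 14 fixed members. The members and lists were chosen with earlier results of these data known. Marker sums are sums of linear scaled signals. Some genes of the lists are not reported here by name.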

Additional observations from a re-analysis of the deposited data

Results flagged for a closer look

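The change with age of 28 members differed between organs by the F-test over all 24 arrays, which is why they are listed here. Cyp2b13 was higher at 90 weeks in the liver (3.95) and lower in the lung (-1.74), with an adjusted p of 2.16e-05 for the difference between organs. Cyp4v3 was lower in the liver (-1.44) and higher in the kidney (1.58), with an adjusted p of 0.00113. Cyp4b1 was higher in the liver (0.82) and lower in the kidney (-1.30), with an adjusted p of 0.00166. Each organ may lie on a slide of its own with both ages on it, so a slide effect on the level cannot be told apart from the organ.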

How the results depend on the processing

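The counts of members depended on the processing most in the liver. There, 27 lower members became 15 with quantile and 10 with spike-in scaling, where 13.4% and 3.44% of all genes were lower. The 27 became 1 by the methods' t-test and 1 to 36 with 1 liver left out. In 1 fit of all 24 arrays they became 20 (30.8%, against 27.9% of all genes). The 8 higher members became 3 by that t-test and 5 to 8 with 1 liver left out. Spike-in scaling moved the share of higher calls among members from 22.9% to 41.2% for liver (all genes 38.6% to 72.6%), and from 16.3% to 30.6% for kidney (all genes 32.7% to 68.1%). Quantile scaling moved the members' share in the liver to 34.8%. In the kidney the main counts were 7 higher and 36 lower members. Spike-in scaling gave 11 higher members, where 29.6% of all genes were higher. In 1 fit of all 24 arrays 15 members were lower (26.8%, against 28.8% of all genes). Leaving out 1 kidney gave 7 to 8 higher and 32 to 38 lower members. In the lung, 1 higher and 1 lower member became 0 and 0 by the t-test, 0 lower without the filter, 2 higher in the fit of 24 arrays (Cyp3a57 added), and 0 to 2 of each with 1 lung left out. In WAT the fit of 24 arrays gave 3 lower members (Cyp2a5, Cyp2j13 and Cyp3a11), and leaving out 1 sample gave 0 to 1. Of the organ comparisons, the lung's 5 members became 12 with spike-in scaling and 3 with normexp, 3 to 5 with 1 replicate number left out, and the 1 WAT member became 0 at 90 weeks and 0 to 1 with a number left out. The liver and kidney counts ranged over 38 to 51 and 3 to 5. The 28 members that differed between organs became 14 with spike-in scaling and 15 to 34 with a replicate left out. Within an organ, young and aged samples of the same replicate number did not vary together (correlation of deviations -0.16 to 0.18). These values do not bear on whether organs of the same number came from the same mice, which the labels do not say. With the replicate number as a block, the liver gave 2 higher and 10 lower members, the lung 0 and 0, the kidney 7 and 39, WAT 0 and 0, and 26 members differed between organs. Over 15 alternatives for each of the 80 called changes of single members, 909 values kept direction and call, 288 kept direction only, and 3 turned, all in the kidney: Cyp2c29 (0.00016) and Cyp2j9 (0.0135) with spike-in scaling and Cyp2c65 (-0.00906) with normexp. Median centring over tested genes gave 32 lower members in the liver and 37 in the kidney, with no other count changed. With normexp, 9 of the 80 changes moved by over 1.5 times. The causes were not tested. Members with dim probes, such as Cyp3a44 in young livers, have a bound only.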

Other observations

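Within subfamilies, 22 of 239 pairs of members correlated at over 0.99 across the 24 arrays, which differ in organ and age and may differ in slide, and the pairs share sequence. Second probes gave other values for a few members: the unused Cyp2d26 probe changed by 2.54 in the lung and -2.33 in WAT, against 0.40 and 0.31 for the probe used, and the unused Cyp4f18 probe changed by 3.07 in the liver and 3.53 in the kidney, against 2.22 and 2.35.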
